A study of Mus musculus with 15 samples.

Results

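Prostaglandin synthesis and signalling was followed through 7 genes, Pla2g4a, Ptgs1, Ptgs2, Ptges, Hpgds, Ptger4 and Hpgd, chosen by name from the 78298 genes listed in the count files of mouse small intestinal organoids. Organoids are epithelial structures grown from crypt cells in a gel, here from crypts of adult female C57BL/6J wild-type mice. The 15 poly-A RNA libraries fall into 5 conditions of 3. Every line carried a lentiviral transgene under the L30 promoter and was kept as 1 antibiotic-selected line, so the 3 libraries of a condition are repeated cultures of that line and the p-values measure the spread between cultures. Halo-NLS organoids, the control, expressed the HaloTag fused to a nuclear localisation signal and a V5 tag. SOX9-mEGFP_budding and SOX9-Halo_budding organoids expressed SOX9, a transcription factor of intestinal stem and progenitor cells, fused to mEGFP or to the HaloTag, and had the budding shape typical of intestinal organoids. SOX9-mEGFP_spheroid and SOX9-Halo_spheroid came from the same lines at later passages, when the organoids had become spherical, and carried a second transgene as well, H2B-mScarletI in the first and H2B-mEGFP in the second. Shape, time in culture and the second transgene therefore differ together between budding and spheroid conditions of a line and cannot be told apart.

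Prostaglandins are lipid signals made on demand from arachidonic acid. Pla2g4a encodes the cytosolic phospholipase that frees arachidonic acid from membranes, Ptgs1 and Ptgs2 encode the cyclooxygenases (COX-1 and COX-2) that turn it into prostaglandin H2, and terminal synthases make the individual prostaglandins from it: Ptges the inducible microsomal prostaglandin E synthase, Hpgds the haematopoietic prostaglandin D synthase. Prostaglandin E2 acts through receptors such as EP4, the product of Ptger4, which raises cAMP, and Hpgd encodes the dehydrogenase that begins its inactivation. In the gut, prostaglandin E2 is known for its part in epithelial repair, and Ptgs1 and Hpgds are known as genes of tuft cells, a chemosensory cell type of the epithelium.

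The libraries held 28062722 to 40559766 reads on genes, so that 1 read was worth 0.0232 to 0.0389 CPM (counts scaled to library size, with sizes adjusted by TMM, the trimmed mean of M values), and a count of 0 allows up to 3 reads, at most 0.117 CPM. Sox9 itself stood at 15.8 ± 6.9 CPM (SD, n = 3) in Halo-NLS and at 186 ± 138 to 490 ± 223 CPM in the 4 SOX9 conditions, where counts of transgene and endogenous gene are not separated. The epithelial markers Epcam, Cdh1, Krt8 and Vil1 were counted in every library, with a summed level of 3360 to 7394 CPM, whereas 8 mesenchymal markers summed to at most 3.37 CPM and 3 endothelial markers to at most 1.01 CPM. The 8 immune markers summed to 2.33 to 4.87 CPM in Halo-NLS, 3.59 to 5.61 in SOX9-mEGFP_budding, 2.30 to 2.94 in SOX9-Halo_budding, 6.56 to 11.4 in SOX9-mEGFP_spheroid and 3.35 to 8.22 in SOX9-Halo_spheroid. The macrophage marker Cd68 was called higher than in Halo-NLS in both spheroid conditions (0.817 ± 0.199 CPM against 4.85 ± 1.14 and 4.94 ± 2.72), Csf1r was called higher in SOX9-mEGFP_spheroid, and Itgam was called lower in SOX9-Halo_spheroid. The pan-leukocyte marker Ptprc had at most 5 reads in any spheroid library and 0 in SOX9-Halo_spheroid. Its highest count was in a control library, Halo-NLS replicate 3, with 17 reads of Ptprc and 34 of the immune marker Cd3e. The other Halo-NLS libraries each held 0 reads of Ptprc and 1 of Cd3e. Replicate 3 also had a count for 40375 genes, against at most 34646 in any other library. The part of immune cells in the results was not tested. In bulk RNA, fewer cells of a type and less RNA per cell cannot be told apart.

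A gene was called when edgeR's quasi-likelihood test gave an adjusted p of at most 0.01 (Benjamini-Hochberg over the 17560 genes tested), the groups differed by 2-fold or more, and the normalized count averaged 10 or more over the libraries. All 7 genes passed the filter on low counts. Ptgs1, Ptgs2 and Ptges could pass it only through the spheroids, and Hpgds only through the budding SOX9 organoids. With a mean normalized count of 5.93, Hpgds could not be called in any comparison.

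In both spheroid conditions, 6 of the 7 genes were higher than in Halo-NLS. In SOX9-Halo_spheroid the background was 13.6% of all genes called higher and 15.3% called lower, and in SOX9-mEGFP_spheroid it was 15.3% higher and 12.1% lower. Of the 7, 0 were called lower in either condition. Hpgds was the gene not called, with a log2 fold change of -3.03 (SE 1.143, adjusted p = 0.040) in SOX9-Halo_spheroid and -2.21 (SE 1.019, adjusted p = 0.084) in SOX9-mEGFP_spheroid. At an unadjusted p under 0.05, 1 gene, Hpgds, was lower in each. DESeq2 called 0 lower, but under the same minimum count, which kept Hpgds from a call there too. The median log2 fold change over the 7 genes was 3.79 in SOX9-Halo_spheroid and 5.17 in SOX9-mEGFP_spheroid, against -0.01 and 0.03 over all genes tested. These medians are the values of Ptges and of Ptgs2. Both genes passed the low-count filter only through the spheroids, so the medians are no result against all genes. In budding organoids only Ptger4 and Pla2g4a were called, both higher, in SOX9-Halo_budding (background 2.49% higher, 1.26% lower) and in SOX9-mEGFP_budding (1.99% higher, 0.763% lower). These 4 comparisons share the Halo-NLS libraries. The background in the budding organoids hung on single libraries and on the fit. The 438 genes called higher in SOX9-Halo_budding became 1986 without Halo-NLS replicate 1, 125 and 187 without replicates 2 and 3, and 5 with only the 6 libraries compared. The 350 called higher in SOX9-mEGFP_budding became 1839, 143, 191 and 65 in the same fits. Scaling by library size alone moved the median log2 fold change of all genes against Halo-NLS to 0.28 in SOX9-Halo_spheroid, 0.29 in SOX9-mEGFP_spheroid, 0.31 in SOX9-Halo_budding and 0.27 in SOX9-mEGFP_budding, from 0.03 or less in each, and raised the share of calls that were higher from 47.1% to 58.2% in SOX9-Halo_spheroid, from 55.8% to 69.0% in SOX9-mEGFP_spheroid, from 66.5% to 90.7% in SOX9-Halo_budding and from 72.3% to 85.2% in SOX9-mEGFP_budding. The number of the 7 genes called was the same in all 4 under that scaling.

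**Figure D1:**
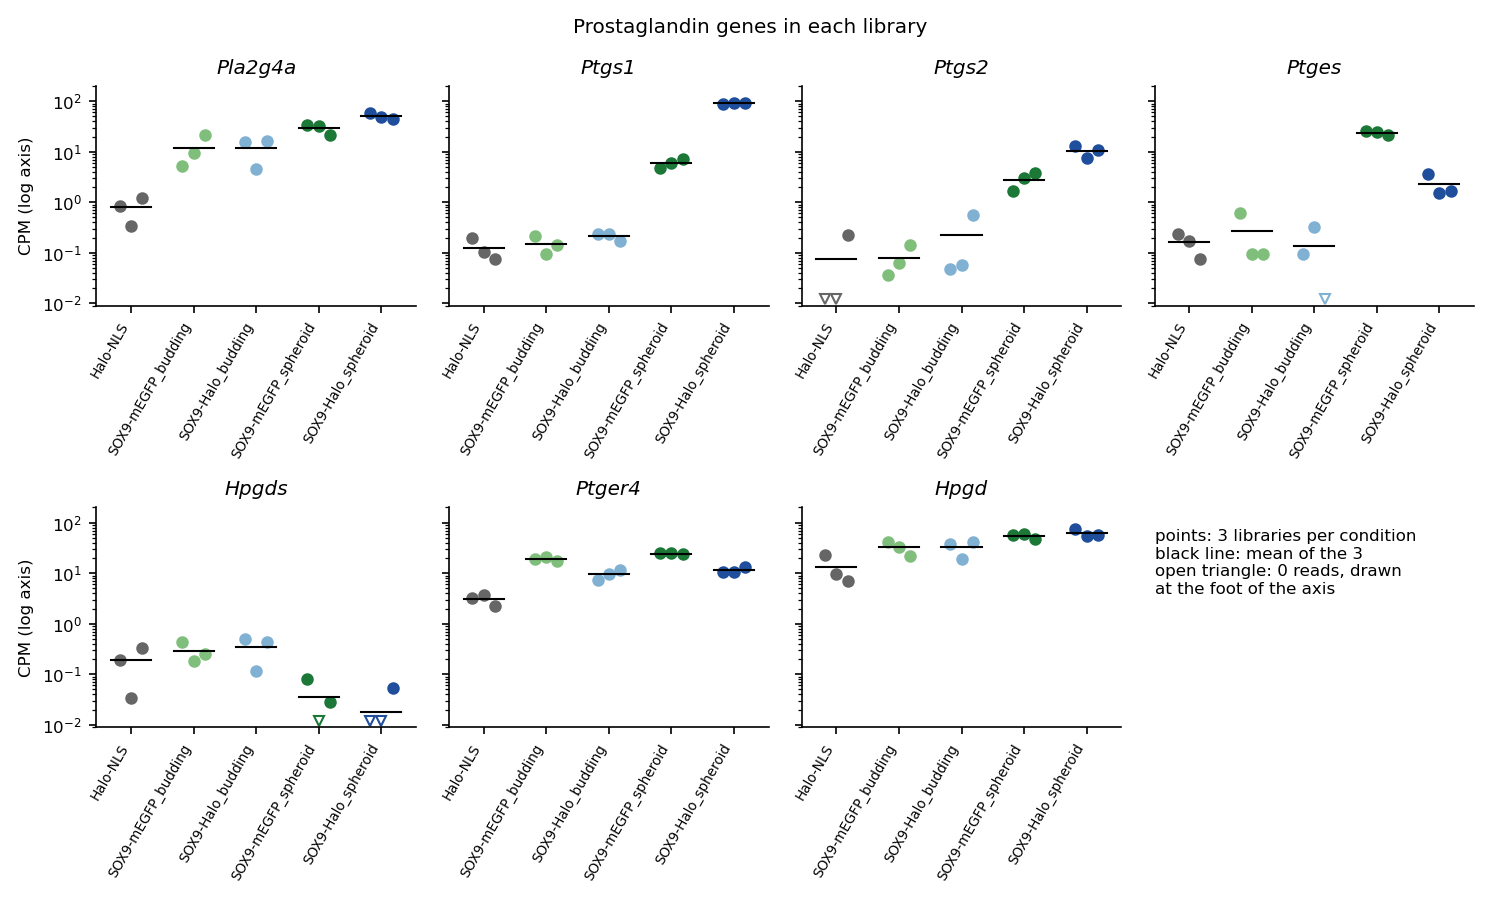
Level of each of the 7 genes in CPM (log axis) in the 15 libraries, grouped by condition, with the mean of the 3 libraries as a black line and libraries with 0 reads as open triangles at the foot of the axis. Ptgs1, Ptgs2 and Ptges stay below 1 CPM in all 9 libraries other than spheroids, whereas Pla2g4a and Ptger4 are already above Halo-NLS in the budding SOX9 organoids.

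**Figure D2:**
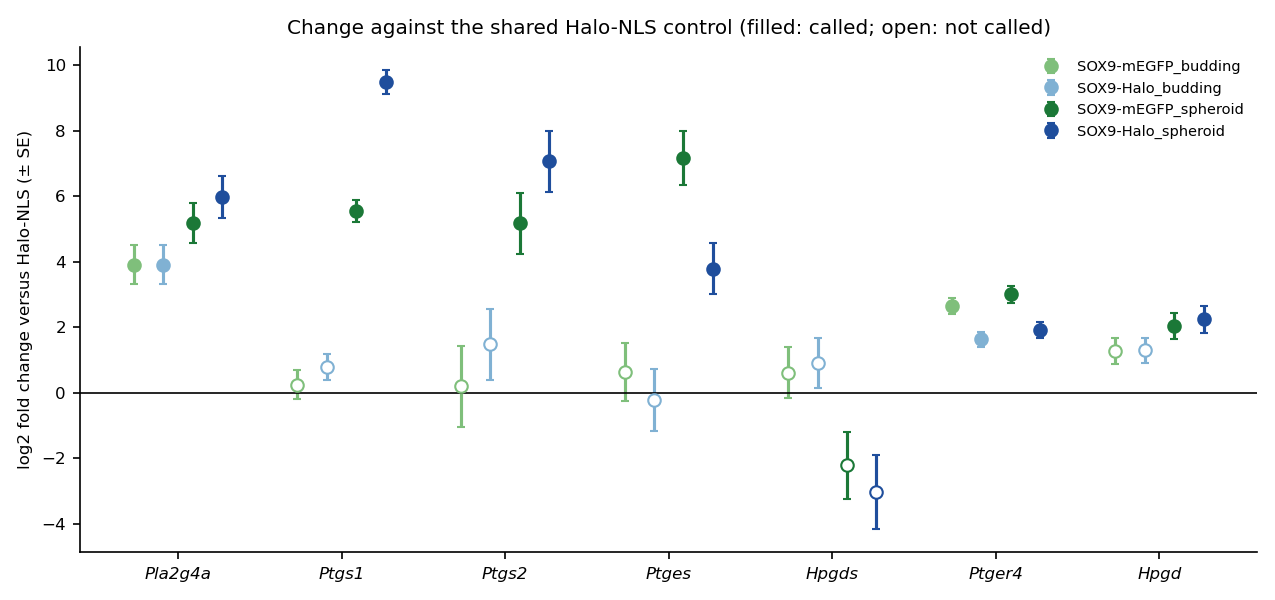
Log2 fold change of each gene against Halo-NLS with its SE, from the fit over 15 libraries; filled points were called. Ptgs1 reached 9.49 in SOX9-Halo_spheroid and Ptges 7.17 in SOX9-mEGFP_spheroid, while Hpgds points lie below 0 in both spheroid conditions and are open.

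The 3 genes that were nearly silent outside the spheroids, Ptgs1, Ptgs2 and Ptges, are shown here by the 250 bases before the start of their Ensembl canonical transcript (genome GRCm39, each read 5′ to 3′ on the gene's strand), since they moved together while differing in which line was highest. Ptgs1 lies at chr2:36120438-36142287 on the plus strand, Ptgs2 at chr1:149975194-149983978 on the plus strand and Ptges at chr2:30779483-30820196 on the minus strand, and the windows shown are chr2:36120188-36120437, chr1:149975238-149975487 and chr2:30793356-30793605. Capitals mark matches to the core of the cAMP response element, the SOX core and the TEAD core. These were searched on both strands together with the TATA box, the AP-1 site and the GC box, and the letters of each are given with its matches.
Ptgs1: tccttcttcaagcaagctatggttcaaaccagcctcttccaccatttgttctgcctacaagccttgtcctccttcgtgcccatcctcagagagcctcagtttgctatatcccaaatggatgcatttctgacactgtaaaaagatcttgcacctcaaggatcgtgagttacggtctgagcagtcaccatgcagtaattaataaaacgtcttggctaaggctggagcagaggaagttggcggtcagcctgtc
Ptgs2: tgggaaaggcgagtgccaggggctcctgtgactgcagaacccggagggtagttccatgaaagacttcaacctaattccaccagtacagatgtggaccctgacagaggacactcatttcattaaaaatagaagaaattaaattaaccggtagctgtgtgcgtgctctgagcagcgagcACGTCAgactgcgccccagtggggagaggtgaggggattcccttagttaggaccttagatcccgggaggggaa
Ptges: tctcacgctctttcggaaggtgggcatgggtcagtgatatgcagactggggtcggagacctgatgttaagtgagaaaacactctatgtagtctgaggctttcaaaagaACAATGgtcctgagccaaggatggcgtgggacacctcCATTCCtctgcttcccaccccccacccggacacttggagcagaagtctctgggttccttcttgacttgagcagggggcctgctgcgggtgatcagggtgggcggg
The Ptgs2 window holds the cAMP response element core, ACGTCA, beginning 73 bases before the start. This match is present in 6.5% of the 21757 protein-coding windows of the same length. The Ptges window holds a SOX core, for which the letters searched were ACAATG and, as the alternative form, ACAAAG, beginning 142 bases before the start. Such a match is present in 23.7% of windows. On the opposite strand of the same window lies the TEAD core, GGAATG, at 105 bases before the start, a match present in 12.1% of windows. The Ptges window also has a GC box, GGGCGG, at 7 bases before the start, left in lower case and present in 36.3% of windows. None of the motifs searched occurs in the Ptgs1 window, which says only that their letters are absent there. The TATA box, searched as TATAAA, is present in 11.9% of all windows and in none of the 3 shown. The AP-1 site, searched with any base in its middle as TGANTCA, is present in 6.2% of all windows and likewise in none of the 3.

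Pla2g4a, which supplies the substrate of the pathway, was the gene of synthesis that was already higher in budding SOX9 organoids. Its levels in Halo-NLS were 0.857, 0.342 and 1.20 CPM. In SOX9-mEGFP_budding they were 5.25, 9.499 and 21.1 CPM and in SOX9-Halo_budding 15.4, 4.58 and 15.9 CPM. In SOX9-mEGFP_spheroid they were 33.2, 32.4 and 21.1 CPM and in SOX9-Halo_spheroid 58.3, 47.8 and 44.6 CPM. No library of a SOX9 condition fell as low as the highest Halo-NLS library, and the libraries of the budding conditions were widely spread and overlapped each other. Against Halo-NLS the log2 fold change was 3.91 (SE 0.596, adjusted p = 0.0011) in SOX9-mEGFP_budding and 3.91 (SE 0.596, adjusted p = 0.0013) in SOX9-Halo_budding, and 5.18 and 5.98 in SOX9-mEGFP_spheroid and SOX9-Halo_spheroid. With only the 6 libraries of each comparison in the fit, the budding calls were lost, at adjusted p = 0.015 and 0.034. Within the SOX9-Halo line, Pla2g4a was higher in the spheroids by 2.07 (SE 0.520, adjusted p = 0.0048), a call lost at adjusted p of 0.010 to 0.015 without SOX9-Halo_budding replicate 1 or 2 or without any 1 of the 3 SOX9-Halo_spheroid libraries. Within the SOX9-mEGFP line the difference of 1.27 (SE 0.509) had an adjusted p of 0.079, and it was called without the low-count filter (adjusted p = 0.00069). Pla2g4a (chr1:149705369-149837053, minus strand) and Ptgs2 are neighbours on chromosome 1, 138.1 kb apart with 0 protein-coding genes between them. Over the 15 libraries, Pearson r of log2 CPM was 0.78 for this pair. It was 0.94 for Ptgs1 and Ptgs2, which lie on different chromosomes. Both coefficients mostly describe differences between the conditions, and a part of gene position in them was not tested.

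Ptgs1, the gene of the cyclooxygenase usually described as constitutive, was at the limit of detection outside the spheroids. The Halo-NLS libraries held 5, 3 and 2 reads of it, SOX9-mEGFP_budding 6, 3 and 6, and SOX9-Halo_budding 10, 8 and 6. In SOX9-mEGFP_spheroid it was at 4.71, 6.00 and 7.10 CPM, and in SOX9-Halo_spheroid at 87.8, 91.7 and 94.1 CPM. These 3 tiers did not overlap, with the 3 other conditions near 0, SOX9-mEGFP_spheroid above them and SOX9-Halo_spheroid highest, with a spread between its libraries of only 3.21 CPM (SD) around 91.2. Against Halo-NLS the log2 fold change was 9.49 (SE 0.363, adjusted p = 3.4e-10) in SOX9-Halo_spheroid and 5.55 (SE 0.336, adjusted p = 2.7e-08) in SOX9-mEGFP_spheroid. Levels in the budding SOX9 organoids could not be told from Halo-NLS at this depth (adjusted p = 0.78 and 0.23). The spheroid conditions differed from each other by 3.94 (SE 0.260, adjusted p = 7.1e-08), a fold of 15.4.

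Ptgs2, the gene of the inducible cyclooxygenase, had the same order of conditions at lower levels. Halo-NLS libraries held 0, 0 and 6 reads, SOX9-mEGFP_budding 1, 2 and 6, and SOX9-Halo_budding 2, 2 and 19. In SOX9-mEGFP_spheroid Ptgs2 was at 1.67, 2.98 and 3.75 CPM, and in SOX9-Halo_spheroid at 12.95, 7.50 and 10.8 CPM. Every spheroid library was above every budding library, and the 2 spheroid conditions did not overlap. The log2 fold change against Halo-NLS was 7.07 (SE 0.932, adjusted p = 1.8e-05) in SOX9-Halo_spheroid and 5.17 (SE 0.923, adjusted p = 0.00038) in SOX9-mEGFP_spheroid. Since 1 control library held all 6 reads, these values rose to 11.5 and 9.57 in a fit without Halo-NLS replicate 3, where the control has no read and the fitted value is no bound. Between the spheroid conditions the difference of 1.90 (SE 0.643) had an adjusted p of 0.044 and was not called, although it was called without the low-count filter (adjusted p = 1.7e-05) and with only those 6 libraries (0.0013). An antisense gene, Ptgs2os, shares 9.29% of the exon bases of Ptgs2 and had 0 to 9 reads per library, and the counting did not use strand.

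Ptges, which acts downstream of the cyclooxygenases on the way to prostaglandin E2, had the reverse order in the spheroids. Its reads numbered 6, 5 and 2 in Halo-NLS, 17, 3 and 4 in SOX9-mEGFP_budding and 4, 11 and 0 in SOX9-Halo_budding. In SOX9-mEGFP_spheroid Ptges was at 25.2, 24.2 and 21.3 CPM, and in SOX9-Halo_spheroid at 3.60, 1.55 and 1.66 CPM. The spheroids were again above all budding libraries, but here SOX9-mEGFP_spheroid was the higher condition, without overlap. The log2 fold change against Halo-NLS was 7.17 (SE 0.817, adjusted p = 6.9e-06) in SOX9-mEGFP_spheroid and 3.79 (SE 0.775, adjusted p = 0.00092) in SOX9-Halo_spheroid, and SOX9-Halo_spheroid was lower than SOX9-mEGFP_spheroid by 10.4 times (log2 fold change -3.38, SE 0.634, adjusted p = 0.001). The antisense gene Gm74745, which shares 7.2% of the exon bases of Ptges, had 7 to 13 reads in SOX9-mEGFP_spheroid and at most 1 elsewhere.

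Hpgds, the synthase of prostaglandin D2 in tuft and haematopoietic cells, was read in small numbers everywhere. Libraries of Halo-NLS held 5, 1 and 9 reads, SOX9-mEGFP_budding 12, 6 and 11, SOX9-Halo_budding 21, 4 and 15, SOX9-mEGFP_spheroid 3, 0 and 1, and SOX9-Halo_spheroid 0, 0 and 2. The spheroids of each line lay below the budding organoids of that line without overlap, but overlapped with Halo-NLS. Relative to the budding organoids of the same line, the level was 0.133 (95% exact counting interval 0.0341 to 0.380) in SOX9-mEGFP_spheroid, from 4 against 29 reads, and 0.0549 (0.00643 to 0.212) in SOX9-Halo_spheroid, from 2 against 40 reads. These intervals cover counting error only. The adjusted p of edgeR was 0.036 and 0.0064, and with a mean normalized count under 10 neither was called. Hpgds passed the low-count filter only because it was high in the budding SOX9 organoids. Its place below them in the spheroids, with these intervals and p-values, is therefore a description and no test.

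Tuft cell markers were set beside Ptgs1 and Hpgds. The 11 markers summed to 5.96 to 9.34 CPM in Halo-NLS, 6.87 to 22.4 in SOX9-mEGFP_budding, 6.43 to 18.3 in SOX9-Halo_budding, 5.08 to 11.4 in SOX9-mEGFP_spheroid and 1.92 to 3.04 in SOX9-Halo_spheroid. All 3 SOX9-Halo_spheroid libraries were below every other library in this sum, with Gfi1b, Chat, Gnat3 and Rgs13 at 0 in each. Of these, Gfi1b, Chat and Gnat3 had at most 7 reads in a Halo-NLS library as well. The marker Dclk1 overlapped with Halo-NLS in both spheroid conditions. It had 34, 10 and 7 reads in SOX9-Halo_spheroid, 27, 35 and 36 in SOX9-mEGFP_spheroid, and 19, 28 and 9 in Halo-NLS. Pou2f3, the transcription factor that defines tuft cells, was at 0.319 ± 0.056 CPM there and at 0.349 ± 0.141 in SOX9-mEGFP_spheroid, against 2.07 ± 0.38 and 2.49 ± 0.66 in the budding SOX9 organoids and 1.02 ± 0.28 in Halo-NLS. In SOX9-mEGFP_spheroid the markers went different ways. Pou2f3 was below Halo-NLS, but Avil had 105, 205 and 324 reads against 37, 65 and 25 in Halo-NLS, and the sum of the 11 markers was not below that of Halo-NLS. The condition with the highest Ptgs1 had the lowest sum of tuft markers. Hpgds had 0 to 3 reads in SOX9-mEGFP_spheroid, at a marker sum like that of Halo-NLS. Its mean was 0.189 CPM in Halo-NLS, 0.292 in SOX9-mEGFP_budding and 0.350 in SOX9-Halo_budding. In SOX9-mEGFP_spheroid it was 0.0359 CPM and in SOX9-Halo_spheroid 0.0179. Hpgds passed the low-count filter only through the budding SOX9 organoids. Like Pou2f3, it was highest there and lowest in the spheroids. Single libraries could depart from this at such low counts, as SOX9-Halo_budding replicate 2 had the most Pou2f3 reads (105) and 4 reads of Hpgds. A part of tuft cell numbers in the Hpgds values was not tested.

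**Figure D3:**
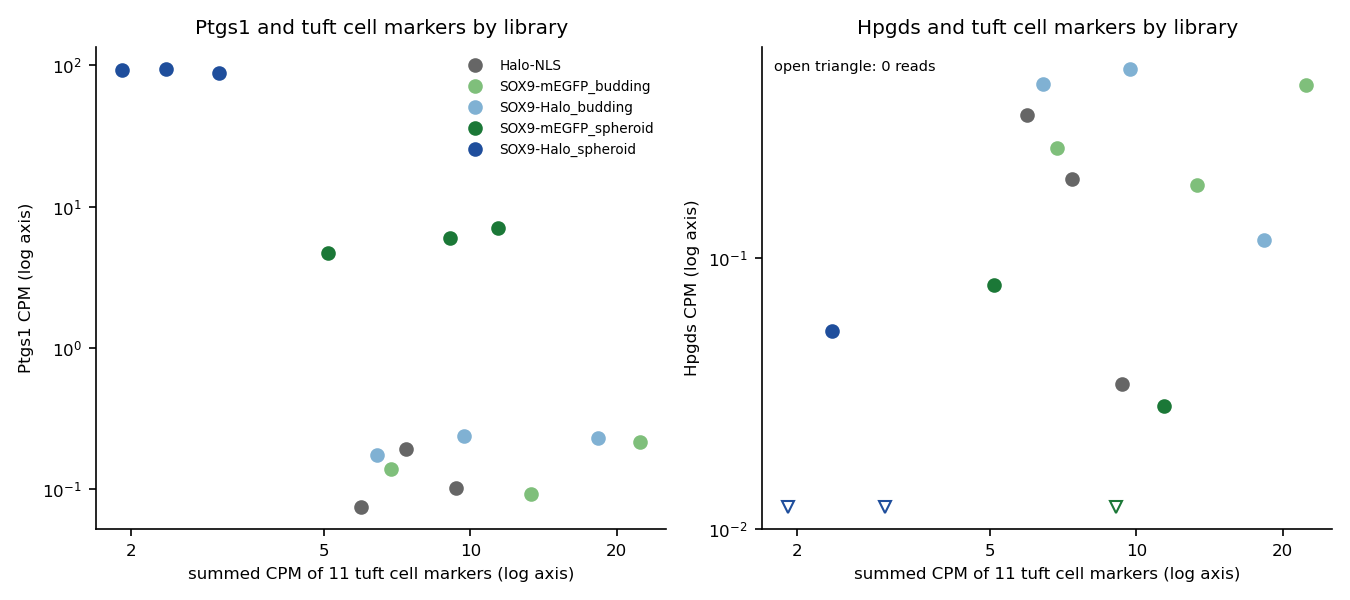
Ptgs1 (left) and Hpgds (right) in CPM against the summed CPM of 11 tuft cell markers, 1 point per library, log axes, coloured by condition, with open triangles for libraries with 0 reads. SOX9-Halo_spheroid libraries have the highest Ptgs1 (87.8 to 94.1 CPM) at the lowest marker sums (1.92 to 3.04 CPM).

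Ptger4, the gene of the prostaglandin E2 receptor EP4, was higher than in Halo-NLS in all 4 SOX9 conditions, and higher in the SOX9-mEGFP line than in the SOX9-Halo line, by a call in the spheroids. Its levels were 3.19, 3.76 and 2.21 CPM in Halo-NLS. They were 18.9, 21.4 and 17.4 CPM in SOX9-mEGFP_budding and 7.35, 9.51 and 11.6 in SOX9-Halo_budding. In the spheroids they were 24.96, 25.2 and 23.5 CPM for SOX9-mEGFP and 10.6, 10.7 and 13.2 for SOX9-Halo. Every SOX9 library was above every Halo-NLS library, and every SOX9-mEGFP library was above every SOX9-Halo library. Against Halo-NLS the log2 fold change was 2.65 (SE 0.247, adjusted p = 1.5e-05) in SOX9-mEGFP_budding, 1.63 (SE 0.240, adjusted p = 0.0011) in SOX9-Halo_budding, 3.01 (SE 0.250, adjusted p = 4e-07) in SOX9-mEGFP_spheroid and 1.91 (SE 0.242, adjusted p = 1.2e-05) in SOX9-Halo_spheroid. The call in SOX9-Halo_budding was lost with only the 6 libraries compared (adjusted p = 0.066). From budding to spheroid the difference was 0.35 (SE 0.229, adjusted p = 0.30) in the SOX9-mEGFP line and 0.28 (SE 0.230, adjusted p = 0.36) in the SOX9-Halo line, so neither was called. Between the lines, SOX9-Halo was lower by -1.02 (SE 0.232, adjusted p = 0.050, not called) in budding organoids and by -1.09 (SE 0.232, adjusted p = 0.0026) in spheroids, the latter lost at adjusted p of 0.011 to 0.020 without SOX9-Halo_spheroid replicate 1 or 2 or SOX9-mEGFP_spheroid replicate 1 or 2, and at 0.011 without the low-count filter. Ptger4 lies at chr15:5236142-5273673 on the minus strand, and the antisense gene Ttc33, with 74 to 598 reads per library, shares 3.44% of its exon bases.

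Hpgd, which encodes the enzyme that inactivates prostaglandin E2, was called higher than in Halo-NLS in both spheroid conditions. In Halo-NLS it was at 23.1, 9.81 and 7.08 CPM. It was at 40.9, 33.7 and 22.4 CPM in SOX9-mEGFP_budding and at 37.5, 19.25 and 41.2 in SOX9-Halo_budding. It was at 57.6, 59.9 and 47.8 CPM in SOX9-mEGFP_spheroid and at 76.7, 55.8 and 56.3 in SOX9-Halo_spheroid. Both spheroid conditions lay above all budding libraries and overlapped each other, while each budding SOX9 condition overlapped with the highest control library, replicate 1. The log2 fold change against Halo-NLS was 2.24 (SE 0.403, adjusted p = 0.00032) in SOX9-Halo_spheroid and 2.05 (SE 0.400, adjusted p = 0.00078) in SOX9-mEGFP_spheroid. In the budding SOX9 organoids it was 1.28 (SE 0.392, adjusted p = 0.043) and 1.29 (SE 0.392, adjusted p = 0.035), and without Halo-NLS replicate 1 both were called, at 1.94 (adjusted p = 0.0015) and 1.95 (adjusted p = 0.0013), as they were without the low-count filter (adjusted p = 0.00033 and 0.00027). Hpgd lies at chr8:56747543-56774082 on the plus strand.

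Within a line, the comparison of spheroids with budding organoids asked which genes moved with the change of shape. Among the 7 genes, 4 rose in the SOX9-Halo line, Ptgs1, Ptgs2, Ptges and Pla2g4a (background 10.5% higher, 14.7% lower). In the SOX9-mEGFP line 3 rose, Ptgs1, Ptgs2 and Ptges (background 8.55% higher, 7.88% lower). These 3 could pass the low-count filter only through the spheroids. In any comparison of spheroids with other organoids they could therefore not be called lower. The counts of members called in such comparisons, and the medians over the members, are thus no result against the background. The log2 fold changes were 8.70 (SE 0.339, adjusted p = 5.8e-10) for Ptgs1, 5.59 (SE 0.804, adjusted p = 4.6e-05) for Ptgs2 and 4.02 (SE 0.762, adjusted p = 0.00055) for Ptges in the SOX9-Halo line. They were 5.30 (SE 0.320, adjusted p = 3.6e-08), 4.98 (SE 0.873, adjusted p = 0.00049) and 6.54 (SE 0.772, adjusted p = 1.5e-05) in the SOX9-mEGFP line. The difference between these changes, tested as an interaction of line and shape (background 1.81% higher, 5.58% lower), was called for Ptgs1 alone, by 3.40 (SE 0.469, adjusted p = 0.00015). For Ptges it was -2.52 (SE 1.092, adjusted p = 0.17), with an interaction past the thresholds only without the low-count filter (adjusted p = 0.005), and for Ptgs2 0.61 (SE 1.314, adjusted p = 0.84).

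Between the spheroid conditions, 1 gene was higher in SOX9-Halo_spheroid, Ptgs1, and 2 were lower, Ptges and Ptger4 (background 3.59% higher, 9.58% lower). Between the budding conditions no member was called by edgeR (background 0.29% higher, 0.165% lower). Of the 7, only Ptger4 had an unadjusted p under 0.05 there, and DESeq2 called it, with a log2 fold change of -1.03 and an adjusted p of 0.00077. Across lines, SOX9-mEGFP_spheroid had 4 genes higher than SOX9-Halo_budding, Ptgs1, Ptgs2, Ptges and Ptger4 (background 9.68% higher, 8.32% lower), of which Ptgs2 was lost without SOX9-Halo_budding replicate 1 (adjusted p = 0.011). SOX9-Halo_spheroid had 4 higher than SOX9-mEGFP_budding, Ptgs1, Ptgs2, Ptges and Pla2g4a (background 10.4% higher, 14.8% lower), of which Ptges was lost without SOX9-mEGFP_budding replicate 2 or 3 or SOX9-Halo_spheroid replicate 1 (adjusted p of 0.011 to 0.016), and Pla2g4a without SOX9-mEGFP_budding replicate 1 or 2 or any 1 of the SOX9-Halo_spheroid libraries (0.011 to 0.027). In the order of the 5 conditions from lowest to highest, the neighbours that differed by a call were SOX9-Halo_budding to SOX9-mEGFP_spheroid for Ptgs1 and Ptgs2, SOX9-mEGFP_spheroid to SOX9-Halo_spheroid for Ptgs1, SOX9-mEGFP_budding to SOX9-Halo_spheroid and SOX9-Halo_spheroid to SOX9-mEGFP_spheroid for Ptges, Halo-NLS to SOX9-Halo_budding for Ptger4 and Halo-NLS to SOX9-mEGFP_budding for Pla2g4a. Neighbours in the order of Hpgd and Hpgds did not differ by a call.

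Levels of different genes were compared per kb of exon. The sum of both cyclooxygenase genes was 0.0465 ± 0.0186 CPM per kb in Halo-NLS, 0.0540 ± 0.0156 in SOX9-mEGFP_budding and 0.0980 ± 0.0474 in SOX9-Halo_budding. It was 2.07 ± 0.51 in SOX9-mEGFP_spheroid and 25.5 ± 0.72 in SOX9-Halo_spheroid (SD, n = 3 each). Ptgs2 made up 25.7% ± 3.97 of that sum in SOX9-mEGFP_spheroid (21.2% to 28.6%) and 7.99% ± 2.13 in SOX9-Halo_spheroid (5.84% to 10.1%), so the libraries did not overlap and Ptgs1 was the larger part in both. With 3 libraries against 3, an exact permutation test cannot go below p = 0.10, and none was run. In the other conditions 3 to 25 reads per library stand behind the share and it is not interpreted. Ptges per kb was 5.34 ± 0.46 in SOX9-mEGFP_spheroid, above the cyclooxygenase sum, and 0.516 ± 0.262 in SOX9-Halo_spheroid, below it. The log2 ratio of the cyclooxygenase sum to Hpgd was -6.44 ± 1.10 in Halo-NLS, -7.60 ± 0.70 in SOX9-mEGFP_budding and -6.78 ± 0.56 in SOX9-Halo_budding. It was -3.13 ± 0.50 in SOX9-mEGFP_spheroid and 0.34 ± 0.28 in SOX9-Halo_spheroid, the only condition in which the cyclooxygenase genes together reached the level of Hpgd.

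**Figure D4:**
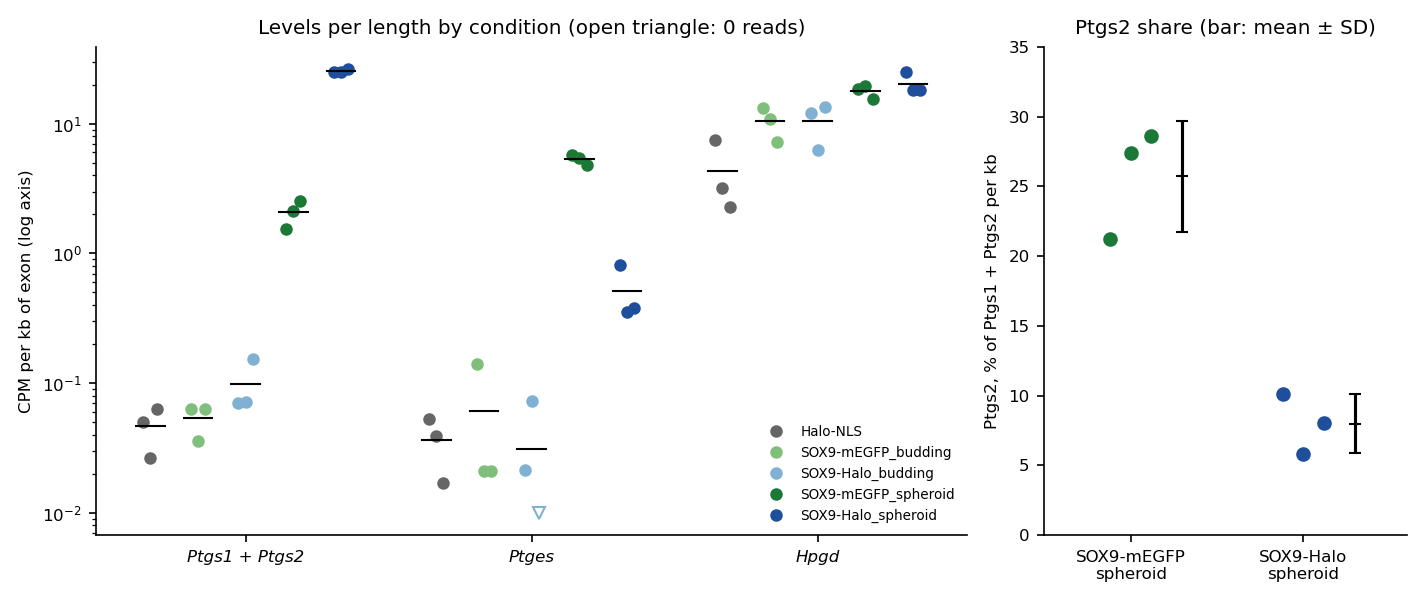
Left, level per kb of exon (CPM per kb, log axis) of the summed cyclooxygenase genes, of Ptges and of Hpgd in the 15 libraries, with the mean of each condition as a black line and an open triangle for 0 reads; right, share of Ptgs2 in the cyclooxygenase sum in the spheroids, with mean and SD. The cyclooxygenase sum is highest in SOX9-Halo_spheroid (25.5 CPM per kb) and Ptges in SOX9-mEGFP_spheroid (5.34 CPM per kb).

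Among other phospholipase genes, Pla2g12b and Pla2g2f fell in both spheroid conditions, and Plaat3, Pla2g15 and Pla2g4c rose in SOX9-Halo_spheroid. Counts of this and the following lists stand against a background of 13.6% of all genes called higher and 15.3% called lower in SOX9-Halo_spheroid, and 15.3% higher and 12.1% lower in SOX9-mEGFP_spheroid, and no list was tested against it. Of 20 listed phospholipase genes 13 were tested. In SOX9-Halo_spheroid 6 were lower and 3 higher than in Halo-NLS (median log2 fold change -1.90 over the 13), and in SOX9-mEGFP_spheroid 5 were lower and 0 higher (median -0.98; at an unadjusted p under 0.05, 1 was higher, and DESeq2 called 0 higher). The 5 calls in SOX9-mEGFP_spheroid became 3 without SOX9-mEGFP_spheroid replicate 3, and ran from 3 to 7 over all libraries left out in turn. The secreted phospholipase gene Pla2g12b fell from 49.5 ± 3.4 CPM in Halo-NLS to 8.97 ± 4.62 in SOX9-mEGFP_spheroid and 0.0805 ± 0.0453 in SOX9-Halo_spheroid (adjusted p = 0.00043 and 5e-08). Pla2g2f, also secreted, was at 18.5 ± 5.9, 0.785 ± 0.328 and 0.0668 ± 0.0273 CPM in the same conditions (adjusted p = 1.5e-05 and 4e-07). The summed absorptive enterocyte markers moved in the same direction, from 4074 to 8508 CPM in Halo-NLS to 131 to 372 in SOX9-mEGFP_spheroid and 1.64 to 5.02 in SOX9-Halo_spheroid, and their part in the fall of these genes was not tested. The 3 higher in SOX9-Halo_spheroid were Plaat3 (43.4 ± 9.6 against 97.5 ± 10.9 CPM, adjusted p = 0.00039), the lysosomal Pla2g15 (5.31 ± 2.19 against 16.1 ± 0.5 CPM, adjusted p = 0.00032) and Pla2g4c, a second cytosolic phospholipase named after its values were seen, at 0.261 ± 0.230 against 13.3 ± 2.8 CPM (adjusted p = 4e-06).

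Among terminal synthases other than Ptges and Hpgds, Ptgds and Akr1b1 rose in SOX9-Halo_spheroid, and Prxl2b and Ptges2 fell in both spheroid conditions. Of 6 tested, 2 were higher and 2 lower in SOX9-Halo_spheroid (median log2 fold change 0.31), and 3 were lower and 0 higher in SOX9-mEGFP_spheroid (median -0.44; 2 higher at an unadjusted p under 0.05, 1 by DESeq2). Without Halo-NLS replicate 3 the 3 calls in SOX9-mEGFP_spheroid became 5, with Ptgds (adjusted p = 0.0066) and Akr1b1 (0.0022) called higher. Ptgds, the lipocalin-type prostaglandin D synthase, was at 0.294 ± 0.272 CPM in Halo-NLS, 1.09 ± 0.25 in SOX9-mEGFP_spheroid and 30.1 ± 15.4 in SOX9-Halo_spheroid, where it rose by 6.66 (log2, SE 0.675, adjusted p = 1.3e-06). The 2 prostaglandin D synthase genes thus stood apart in SOX9-Halo_spheroid, with Ptgds at its highest and Hpgds at 0 to 2 reads. Akr1b1, an aldose reductase gene whose product can make prostaglandin F, rose from 14.4 ± 5.2 to 39.9 ± 1.6 CPM there (adjusted p = 0.00049) and was at 26.9 ± 3.3 in SOX9-mEGFP_spheroid (adjusted p = 0.014, not called). Prxl2b, which encodes a prostamide and prostaglandin F synthase, fell from 198 ± 22 CPM to 29.7 ± 15.96 in SOX9-mEGFP_spheroid and 2.98 ± 0.46 in SOX9-Halo_spheroid (adjusted p = 0.00012 and 1.7e-07). Ptges2, a membrane-associated prostaglandin E synthase, fell from 107 ± 17 CPM to 40.8 ± 3.0 and 48.2 ± 6.1 (adjusted p = 7.8e-05 and 0.00029), with the call in SOX9-Halo_spheroid lost on scaling by library size alone (log2 fold change -0.85). Tbxas1, the thromboxane synthase gene and the third lower in SOX9-mEGFP_spheroid, was named after its values were seen (1.03 ± 0.33 against 0.207 ± 0.042 CPM, adjusted p = 0.00087).

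Ptger4 was the prostanoid receptor gene with the most reads. Of 8 other receptor genes 2 were tested, and Ptger2, the other prostaglandin E2 receptor that raises cAMP, and Ptgfr had 0 reads in each of the 15 libraries. Per kb, Ptger4 stood at 0.459 ± 0.118 CPM in Halo-NLS and 3.69 ± 0.14 in SOX9-mEGFP_spheroid, and Ptger1 at 0.0282 ± 0.0190 and 0.0575 ± 0.0127. Ptger3, whose receptor lowers cAMP, had 31 reads over the Halo-NLS libraries and 0 in SOX9-Halo_spheroid, where it was called lower (adjusted p = 0.0059) and was at least 12.8-fold lower against a floor of 3 reads over the condition. This call was lost without Halo-NLS replicate 1 or 2 or any 1 SOX9-Halo_spheroid library (adjusted p of 0.011 to 0.018), and without SOX9-mEGFP_budding replicate 1, and with only the libraries compared Ptger3 did not pass the low-count filter. In SOX9-mEGFP_spheroid it had 5 reads in all and was not called (adjusted p = 0.038). Ptger1 went the other way in SOX9-Halo_spheroid, with a log2 fold change of 1.55 (adjusted p = 0.014, not called). It was called higher there with library sizes only and without Halo-NLS replicate 2 (adjusted p = 0.0042 in each). Over the 2 tested genes the median log2 fold change was -2.57 in SOX9-Halo_spheroid and -0.96 in SOX9-mEGFP_spheroid. The first of these rests on the value fitted to 0 reads of Ptger3, which is no bound, and does not describe both genes.

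For transport and inactivation, 6 genes were tested, with 1 higher and 1 lower in each spheroid condition (median log2 fold change -0.54 in SOX9-Halo_spheroid and -0.31 in SOX9-mEGFP_spheroid). Abcc4, an exporter that carries prostaglandins out of the cell, was the gene higher in both, at 7.20 ± 2.35 CPM in Halo-NLS, 53.1 ± 5.1 in SOX9-mEGFP_spheroid and 64.5 ± 10.7 in SOX9-Halo_spheroid (adjusted p = 3.6e-05 and 1.1e-05). Slco2a1, the prostaglandin uptake transporter, fell from 6.95 ± 3.44 to 0.174 ± 0.068 CPM in SOX9-Halo_spheroid (adjusted p = 8.3e-06), and was at 2.92 ± 1.51 in SOX9-mEGFP_spheroid (adjusted p = 0.051). Ptgr1, a prostaglandin reductase, fell to 221 ± 69 CPM in SOX9-mEGFP_spheroid from 635 ± 72 in Halo-NLS (adjusted p = 7e-05) and was at 519 ± 46 in SOX9-Halo_spheroid (adjusted p = 0.29). Cbr1, a carbonyl reductase and the most abundant of the list, was at 790 ± 112 CPM in Halo-NLS against 451 ± 76 and 459 ± 191 in the spheroids, with adjusted p of 0.041 and 0.047, and was not called, except lower in SOX9-Halo_spheroid without its replicate 1 (adjusted p = 0.0074).

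The lipoxygenase branch, which turns arachidonic acid into leukotrienes and related lipids, had 9 of 14 genes tested. In SOX9-Halo_spheroid 2 were higher and 3 lower (median log2 fold change -1.25), and in SOX9-mEGFP_spheroid 1 was higher and 2 lower (median 1.67). Alox15 was higher in both, at 0.219 ± 0.048 CPM in Halo-NLS, 5.50 ± 0.20 in SOX9-mEGFP_spheroid and 34.1 ± 3.0 in SOX9-Halo_spheroid (log2 fold change 4.62 and 7.26, adjusted p = 1.3e-07 and 2.3e-09). Like Ptgs1, it could pass the low-count filter only through the spheroids, and so could not be called lower in them. Ltc4s, the leukotriene C4 synthase gene, rose from 1.25 ± 0.24 to 6.30 ± 2.88 CPM in SOX9-Halo_spheroid (adjusted p = 0.00012). Lta4h, the leukotriene A4 hydrolase gene, fell from 245 ± 56 to 83.6 ± 6.8 CPM in SOX9-Halo_spheroid (adjusted p = 7.7e-06), and the leukotriene B4 receptor gene Ltb4r2 fell from 4.98 ± 1.73 to 0.305 ± 0.156 there and to 1.33 ± 0.06 in SOX9-mEGFP_spheroid (adjusted p = 5.1e-06 and 0.0015). Ltb4r1, its neighbour in the list and named after its values were seen, fell from 2.14 ± 0.25 to 0.174 ± 0.075 and 0.571 ± 0.062 CPM.

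Downstream of EP4, 15 of 16 genes of cAMP signalling were tested. In SOX9-Halo_spheroid (background 13.6% higher, 15.3% lower) 4 were higher and 1 lower (median log2 fold change 0.37), and in SOX9-mEGFP_spheroid (background 15.3% higher, 12.1% lower) 5 were higher and 0 lower (median 0.73; 2 lower at an unadjusted p under 0.05, 0 by DESeq2). Nr4a1, an immediate early gene that cAMP can induce, was at 3.48 ± 0.66 CPM in Halo-NLS, 41.5 ± 7.8 in SOX9-mEGFP_spheroid and 38.9 ± 9.5 in SOX9-Halo_spheroid (adjusted p = 5.5e-07 and 3.3e-07), and at 9.97 ± 0.89 and 4.93 ± 1.71 in SOX9-mEGFP_budding (adjusted p = 0.0053) and SOX9-Halo_budding. Prkacb, a catalytic subunit of protein kinase A, rose in all 4 SOX9 conditions, from 2.20 ± 0.71 CPM to 9.55 ± 3.26 and 11.95 ± 3.43 in the budding organoids and 22.9 ± 4.3 and 23.1 ± 0.8 in the spheroids. Apart from Nr4a3, the rest of the calls differed between the spheroid conditions. Pde4d, a cAMP phosphodiesterase, was called in SOX9-mEGFP_spheroid (2.79 ± 1.08 against 8.48 ± 0.86 CPM, adjusted p = 0.00032), and Adcy6, an adenylyl cyclase, was lower in SOX9-Halo_spheroid (209 ± 78 against 60.2 ± 13.2 CPM, adjusted p = 7.5e-05). Nr4a3, called in both, Adcy7, called in SOX9-Halo_spheroid, and Crem, called in SOX9-mEGFP_spheroid, were named after their values were seen, with log2 fold changes of 4.37 and 4.35, 4.59, and 1.46. The call of Crem was lost with only the libraries compared (adjusted p = 0.012). Gnas, which encodes the G protein subunit that couples EP4 to adenylyl cyclase, was the most abundant at 997 ± 114 CPM in Halo-NLS and 762 ± 18 and 768 ± 83 in the spheroids, with adjusted p of 0.085 and 0.097.

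**Figure D5:**
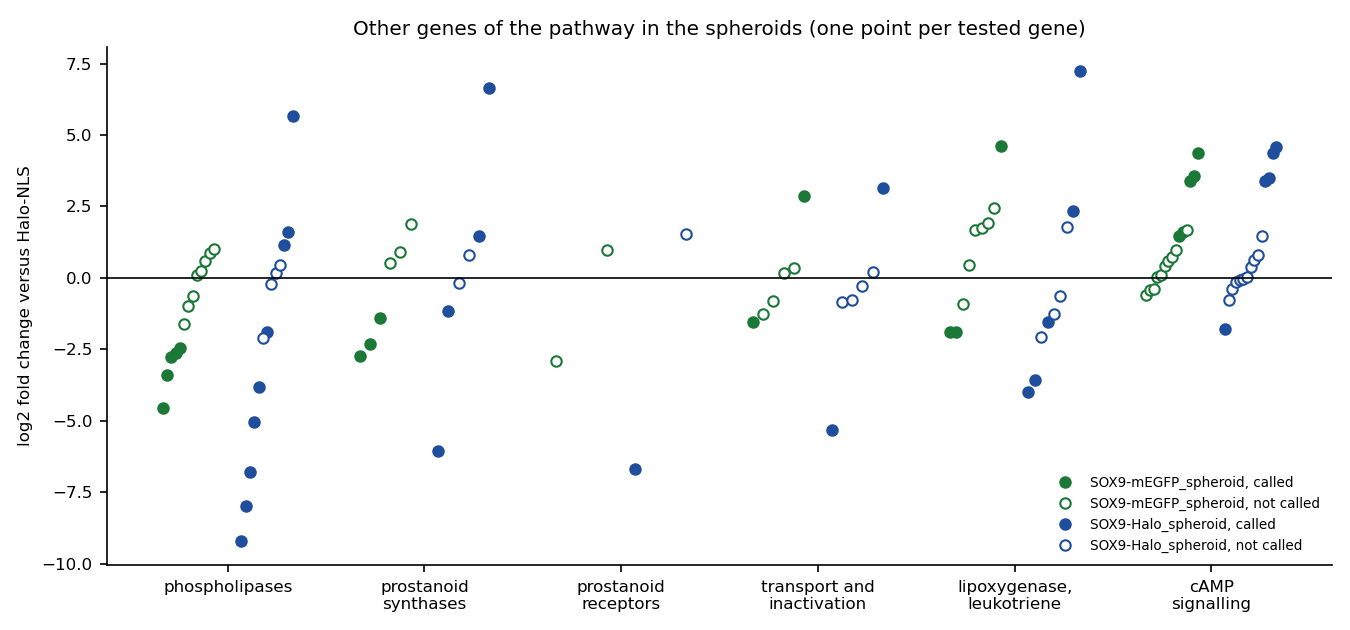
Log2 fold change against Halo-NLS of each tested gene of 6 pathway lists in SOX9-mEGFP_spheroid (green) and SOX9-Halo_spheroid (blue); filled points were called, and the 7 main genes are not in the lists. The lowest called point in the prostanoid receptors is Ptger3, with 0 reads in SOX9-Halo_spheroid, whose fitted value is no bound. The highest of the lipoxygenase genes is Alox15, which passed the low-count filter only through the spheroids.

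Genes whose log2 CPM followed each member most closely over the 15 libraries were looked up among the 10998 other genes whose normalized count averaged 100 or more. The libraries fall into 5 conditions, so these coefficients mostly describe differences between conditions. Ptgs1 was nearest to Zmynd15, Alox15 and Pcolce (Pearson r 0.991, 0.990 and 0.988), and Ptgs2 to Plau, Anxa8 and Msln (0.986, 0.986 and 0.985). Among the genes nearest to Ptges were Hgfac and C1qtnf6 (0.977 and 0.969). Ptger4 was nearest to Ceacam1, Gm10384 and 2010001K21Rik (0.976, 0.953 and 0.949), Hpgd to Tmem168, Lgalsl and Acer3 (0.975, 0.973 and 0.969), and Pla2g4a to Pik3r3, Snx10 and Arhgap6 (0.977, 0.969 and 0.963). Among the members themselves, r ran from 0.35 for Ptgs1 with Ptger4 to 0.94 for Ptgs1 with Ptgs2.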

How the data were processed

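Poly-A RNA of 15 organoid libraries was sequenced as paired reads. The authors trimmed the reads with cutadapt 4.5, aligned them to mm39 with STAR keeping unique alignments, and deposited counts per gene from HTSeq 2.0.2 in union mode, without strand, on the Ensembl GRCm39 annotation. They ran DESeq2 on all conditions; the deposited comparison tables (fold changes and p-values) and normalized counts were not used here. Reads on several genes (9.65% to 13.6%) and on no gene (1.83% to 6.10%) are outside the counts.

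Here the raw counts were fitted with edgeR 4.0.16 (R 4.3.3; TMM scaling, filterByExpr, 1 coefficient per condition, all 15 libraries, glmQLFTest), which tested 17560 genes. Calls were made at an adjusted p up to 0.01, a 2-fold difference or more, and 10 or more normalized counts on average. SE was taken from the fitted log2 difference and the F statistic, as their ratio with F under the root. log2 CPM used a prior count of 2. The script was tested on simulated counts. Replicates differed far beyond counting noise (chi-square per degree of freedom 20.5 to 225), so no library is a duplicate.

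Positions, exon lengths and promoter windows came from GENCODE M39 and GRCm39, in which 78168 of the 78298 identifiers were found. The 7 genes are always named. From each pathway list, at most 4 genes called in a spheroid condition with the highest mean CPM and the most abundant gene are named, and the 3 genes most like each member that averaged 10 or more normalized counts. Some genes that these rules select are not reported here. The members, lists and rules were chosen with earlier results of these data known.

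Replicate numbers were checked for pairing by correlating deviations from condition means. A pair of conditions passed when each of its 3 same-numbered correlations was over 0.1. Halo-NLS with SOX9-Halo_budding failed on 1 number (0.362, 0.646 and 0.061, mean of other numbers -0.182). So did SOX9-mEGFP_budding with SOX9-Halo_budding (0.044, 0.288 and 0.618, mean of other numbers -0.164). Only 1 of 10 pairs of conditions passed, the budding organoids and spheroids of the SOX9-Halo line. There same-numbered libraries correlated at 0.275, 0.162 and 0.240 (mean of other numbers -0.116), so the pairing rests on this correlation alone. For that line, a fit blocked on the number was added after seeing the data. Alternatives were RLE scaling, library sizes only, no low-count filter, DESeq2 1.42.0, only the libraries compared, a replicate block, leaving out each library, and an adjusted p of at most 0.05 without a fold threshold.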

Additional observations from a re-analysis of the deposited data

Results flagged for a closer look

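The rise of Ptgs1 from budding organoids to spheroids was larger in the SOX9-Halo line than in the SOX9-mEGFP line by 3.40 on the log2 scale (SE 0.469, adjusted p = 0.00015, edgeR interaction of line and shape), and this difference between the lines is what marks it for a closer look. The budding libraries of both lines held only 3 to 10 reads of Ptgs1, so the size of each rise rests on few reads. Between the spheroid conditions themselves the difference was 3.94 (SE 0.260), and all 3 SOX9-Halo_spheroid libraries held more Ptgs1 than any SOX9-mEGFP_spheroid library. The lines differ in the tag on SOX9, in passage and, in the spheroids, in the second transgene, which cannot be told apart here.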

How the results depend on the processing

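The number of members called against Halo-NLS was 6 in both spheroid conditions under each alternative, and Ptgs1, Ptgs2 and Ptges were called there throughout. Calls in budding organoids depended on the fit. With only the libraries compared, 0 members were called in SOX9-Halo_budding versus Halo-NLS and 1 in SOX9-mEGFP_budding versus Halo-NLS, in place of 2 each. Between the budding conditions 1 was called by DESeq2 and 1 at an adjusted p of at most 0.05 without a fold threshold, and the interaction of line and shape had 2 calls without the low-count filter. Leaving out 1 library at a time gave 2 to 4 calls in SOX9-Halo_spheroid versus SOX9-mEGFP_budding. With the replicate number as a block, over all 15 libraries or within the SOX9-Halo line, all counts of members called were the same (4 in SOX9-Halo_spheroid versus SOX9-Halo_budding), and the pairing changed no call of a member.

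Of 77 log2 fold changes of members, 15 changed sign under some alternative, and none of these was called in the main fit; the cause was not tested. Ptges in SOX9-Halo_budding versus Halo-NLS was 0.0402 with library sizes only and -1.56 to 0.34 leaving out libraries. Between the budding conditions Hpgd was -4.27e-05 with RLE scaling, -0.00346 with DESeq2 and -0.23 to 0.28 leaving out libraries; Pla2g4a was -0.0106 without the low-count filter, -0.0276 with the block and -0.35 to 0.66; Ptgs2 ran from -0.67 to 1.97, Ptges from -2.19 to 0.54 and Hpgds from -0.0595 to 0.69. Against Halo-NLS, leaving out libraries gave -0.44 to 5.88 for Ptgs2 in SOX9-Halo_budding, and in SOX9-mEGFP_budding -0.54 to 4.60 for Ptgs2, -0.75 to 1.10 for Ptges and -0.0485 to 0.70 for Ptgs1. Hpgds between the spheroid conditions ran from -3.43 to 0.34. In the interaction the ranges were -0.0193 to 2.57 for Ptgs2, -0.23 to 0.11 for Ptger4, -0.0908 to 0.47 for Hpgd and -3.74 to 0.0259 for Hpgds. The numbers of all genes called in the budding organoids moved with other settings too: of 438 and 350 called higher in SOX9-Halo_budding and SOX9-mEGFP_budding, there were 1933 and 1730 without the low-count filter, 1106 and 951 by DESeq2, 1068 and 620 with library sizes only. Leaving out a library of the condition itself gave 151 to 531 and 195 to 221. Depth limits Ptgs1, Ptgs2 and Ptges outside the spheroids and Hpgds everywhere, where 0 to 21 reads per library were counted.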
